A study of Mus musculus with 2 samples.

Results

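The Sonic hedgehog pathway genes Shh, Ptch1, Smo, Gli1, Gli2, Gli3, Hhip, Sufu and Boc were examined in total RNA of the embryonic mouse hindbrain, which gives rise to cerebellum, pons and medulla. These 9 genes were taken by name from a list of pathway components, and each was matched by its identifier among the 43346 genes of the deposited tables. The tissue came from embryos of strain B6NCrl at embryonic day 14.5, with no treatment, mutation or transgene named in the labels. Each of 2 libraries was made from 10 ng of RNA, and per the labels each came from a single hindbrain of 1 pup, although sex is given as pooled. Both carry the same donor identifier and differ in collection date, so date and replicate cannot be told apart. They form 1 group, so there is no contrast between conditions. The p-values below compare the libraries with each other, measure counting noise only, and a difference may be technical.

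In this pathway a lipid-modified ligand, of which Shh is the best known, binds Ptch1 and thereby relieves the block that Ptch1 places on the signal transducer Smo. Smo then acts on a complex of Sufu with the Gli transcription factors, so that full-length Gli activators form in place of truncated Gli repressors. In the embryonic hindbrain Shh is known as a signal of the floor plate that patterns ventral progenitors. Later, in the developing cerebellum, it is known as a signal of Purkinje cells that drives division of granule cell progenitors. Ptch1, Hhip and Gli1 are themselves classical target genes of the pathway.

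The libraries held 34929425 and 33510896 expected counts, which are the authors' estimates of reads per feature. All 8 hindbrain markers, among them the Hox genes Hoxa5 and Hoxb5, had at least 1 TPM in both libraries (TPM is a level corrected for transcript length and scaled to the same total in each library). Of 7 forebrain markers 1 did, Lhx2, which is also found outside the forebrain, and Emx1 had no count in either library. No list of spinal cord markers was used, so cord in the tissue was not examined. The exact two-sided binomial test of scaled counts called 33.9% of the 17664 genes tested different between the libraries, 15.6% higher and 18.3% lower in replicate 2 (Benjamini-Hochberg adjusted p under 0.05). The libraries thus differed beyond counting noise in many genes. Of the genes tested 2.32% were called with a difference of at least 1.5-fold after 1 was added to each TPM. Adding 1 lowers the folds of genes with low TPM, so this share leaves out larger folds among them.

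All 9 pathway genes had at least 1 TPM in both libraries, which held for 34.8% of all genes and 62.5% of protein-coding genes. Their levels spanned a wide range, from Sufu at a mean of 18.2 ± 0.863 TPM (SD, n = 2) to Shh at 1.10 ± 0.0849 TPM. By mean TPM the order was Sufu, Ptch1, Smo, Boc, Hhip, Gli3, Gli2, Gli1 and Shh. In 6 of the 8 neighbouring pairs both libraries of the higher gene lay above both libraries of the lower one. The exceptions were Hhip with Gli3 and Gli1 with Shh, whose values overlapped. Sufu lay near the middle of the detected genes, with 51.4% of them at a lower mean TPM, and Shh near the detection limit, with 0.239% of them lower. Summed over the 9 genes, the level was 63.4 TPM in replicate 1 and 68.3 TPM in replicate 2.

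**Figure D1:**
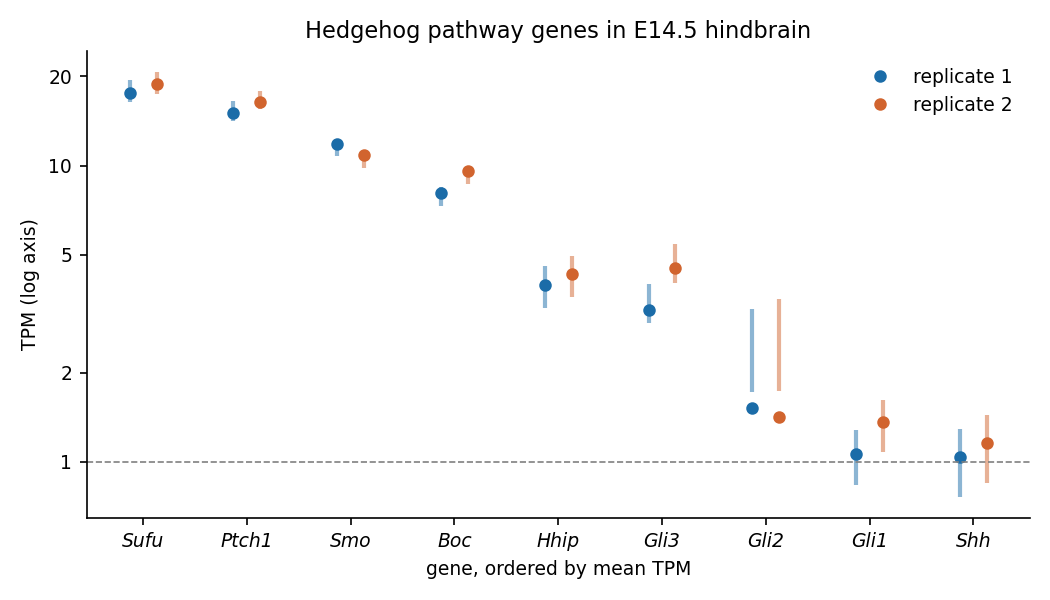
Level of each pathway gene in TPM on a log axis, by library (points), with the deposited credibility interval of each library (bars) and the detection limit of 1 TPM (dashed line). Sufu, Ptch1 and Smo lie above 10 TPM in both libraries, Shh and Gli1 lie at the limit with bars that cross it in at least 1 library, and the points of Gli2 lie below their bars.

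The ligand gene Shh (chr5:28456815-28467256, minus strand, GRCm38) was the lowest of the 9. It had 1.04 TPM in replicate 1 and 1.16 TPM in replicate 2, from 57.4 and 58.6 expected counts. The authors' credibility intervals, 0.762 to 1.29 and 0.847 to 1.44 TPM, both crossed the detection limit, so detection at 1 TPM is not firm at this depth. In bulk tissue a low level in many cells and a high level in few cells cannot be told apart. The replicate difference was 0.08 on the log2(TPM + 1) scale (exact binomial test, adjusted p = 0.867). All its counts were assigned to the only Shh transcript listed, Shh-201, with 3 exons. The strand setting of the counting is not given in the sources used here, and 2 noncoding genes on the opposite strand overlap Shh. Of these 9530036O11Rik had 0.07 and 0.08 TPM and Gm26894 had 0.25 and 0.51 TPM.

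The other ligands were at a similar or lower level. Desert hedgehog (Dhh), best known from Schwann cells and the testis, had 1.20 and 1.40 TPM, above both values of Shh, with a ratio of Dhh to Shh of 1.18 ± 0.0375 (SD, n = 2). The intervals of both genes overlapped in each library, and the annotated span of Dhh overlaps that of Rhebl1 on the same strand, which had 14.89 and 15.26 TPM. Indian hedgehog (Ihh), known for its role in cartilage, had 0.26 and 0.28 TPM and so stayed under the limit. Of the 8 genes for the other ligands, lipid transfer, release and uptake, 6 were detected. None was called higher and 3 were called lower in replicate 2, against 15.6% and 18.3% of all genes tested, with a median log2(TPM + 1) ratio of -0.14 against 0.04 over all genes tested. The most abundant were Disp1, which releases the lipid-modified ligand from the cell (7.21 and 7.97 TPM), and the secreted release factors Scube1 (7.53 and 6.11 TPM) and Scube3 (5.35 and 3.90 TPM). Scube1, Scube3 and the endocytic receptor Lrp2 (1.3 and 0.87 TPM) were the 3 called lower; with spike-in scaling Lrp2 was no longer called (exact binomial test, adjusted p = 0.0533).

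Ptch1, the ligand receptor and brake on Smo, lies at chr13:63508328-63573598 on the minus strand. It had 15.07 TPM in replicate 1 and 16.33 TPM in replicate 2 (2116 and 2178 expected counts), a mean of 15.7 ± 0.891 TPM (SD, n = 2). The higher value in replicate 2 was not called under the scaling by gene total (log2 ratio of scaled counts 0.10, exact binomial test, adjusted p = 0.0753). It was called with TMM factors, DESeq2 size factors and spike-in scaling (exact binomial test, adjusted p = 0.0102, 0.0171 and 3.08e-06). Ptch1 stood 14.3 ± 0.292 times above its ligand Shh within a library (SD, n = 2).

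Smo, the seven-pass membrane protein that Ptch1 holds inactive, lies at chr6:29735503-29761365 on the plus strand. It had 11.86 TPM in replicate 1 and 10.86 TPM in replicate 2, from 933 and 781 expected counts. Smo was 1 of 2 pathway genes called between the libraries and the only one called lower (log2 ratio of scaled counts -0.20, exact binomial test, adjusted p = 0.0163). The call was lost with TMM factors (exact binomial test, adjusted p = 0.0548) and with spike-in scaling (adjusted p = 0.421). Its credibility intervals, 10.8 to 12.3 and 9.84 to 11.3 TPM, nevertheless overlapped. The ratio of Ptch1 to Smo, both measured per length, was 1.27 in replicate 1 and 1.5 in replicate 2, so Ptch1 lay above Smo in both.

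Boc, an immunoglobulin-family co-receptor that presents the ligand to Ptch1, lies at chr16:44485049-44558897 on the minus strand. It had 8.08 and 9.57 TPM from 748 and 810 expected counts, and was not called under the scaling by gene total (log2 ratio of scaled counts 0.17, exact binomial test, adjusted p = 0.0596). It was called higher with TMM factors, DESeq2 size factors and spike-in scaling (exact binomial test, adjusted p = 0.0181, 0.0243 and 0.000258). Its credibility intervals of 7.32 to 8.45 and 8.67 to 9.95 TPM did not overlap, as for 22.6% of the genes tested. The other co-receptors differed from Boc in level. Gas1, a membrane-anchored co-receptor, had 15.25 and 21.01 TPM and lay above Boc in both libraries, while Cdon, the closest relative of Boc, had 3.76 and 2.39 TPM and lay below it in both. Gas1 was called higher and Cdon lower in replicate 2, so the ratio of Boc to Cdon was 2.15 in replicate 1 and 4.0 in replicate 2.

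Hhip, a membrane protein that binds and sequesters hedgehog ligands, lies at chr8:79965851-80058006 on the minus strand. It had 3.96 and 4.29 TPM from 303 and 304 expected counts, and the libraries did not differ beyond counting noise (log2 ratio of scaled counts 0.06, exact binomial test, adjusted p = 0.767). Ptch1 and Hhip, the feedback inhibitors at the cell surface, kept a ratio of 3.81 in replicate 1 and 3.81 in replicate 2. A small RNA gene on the opposite strand inside Hhip, Gm27820, was listed at 5.53 TPM in replicate 1 and 0 in replicate 2. These values rest on only 8.98 and 0 expected counts.

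Of 5 other receptors and co-receptors all were detected, 1 was called higher (Gas1) and 2 lower (Cdon and Gpc3), against 15.6% and 18.3% of all genes tested, with a median log2(TPM + 1) ratio of -0.01. The most abundant were the glypican Gpc3, a cell-surface proteoglycan that binds hedgehog ligand (96.43 and 81.94 TPM), Gas1, and the receptor Lgr4 (10.70 and 10.61 TPM). Lgr4 is not an established receptor of hedgehog ligands, and the counts of this list include it. The called genes Gas1, Cdon and Gpc3 kept their direction and call under TMM, DESeq2 and spike-in scaling. Lgr4, which was not called, had a log2 ratio of scaled counts of -0.04 with the gene total and 0.08 with spike-in scaling.

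**Figure D2:**
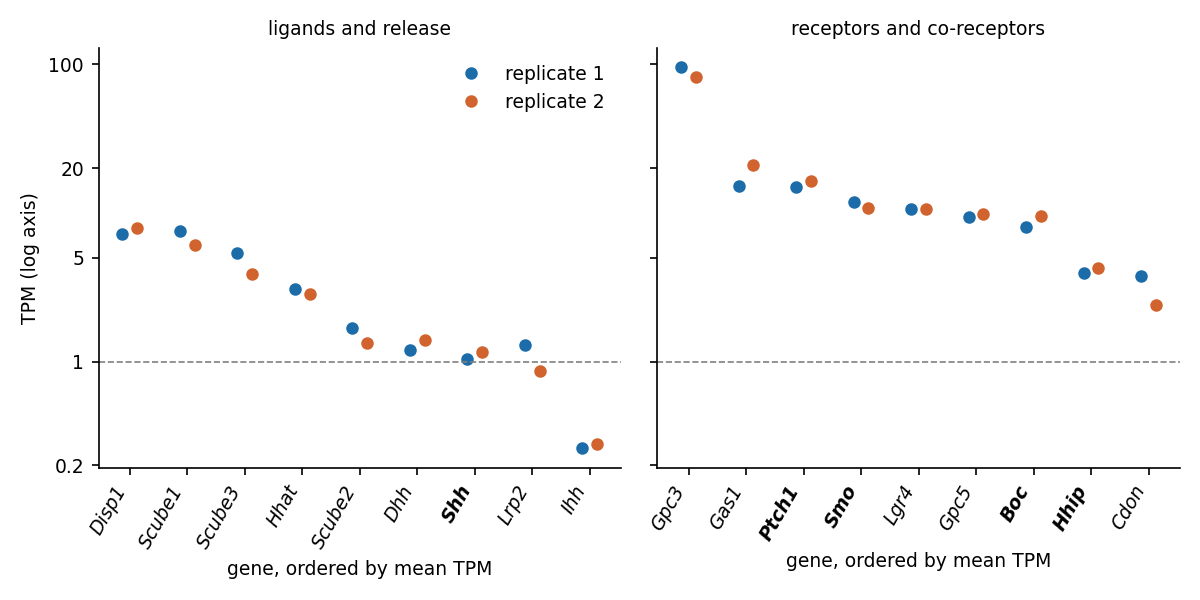
Level in TPM on a log axis of hedgehog ligands and release factors (left) and of receptors and co-receptors (right), by library; names in bold are the pathway genes described here and the dashed line is 1 TPM. Shh lies between Dhh and Lrp2 near the limit, while Ptch1 and Smo follow Gpc3 and Gas1 in mean level among the receptors. Lgr4, on the right, is not an established hedgehog receptor.

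Sequence upstream of the pathway genes was taken from RefSeq (GRCm38.p6), which held a promoter window for 6 of the 9, Gli2, Smo, Hhip, Gli3, Ptch1 and Sufu; Shh, Gli1 and Boc were not among the entries used. The windows of Ptch1 and Hhip are shown because both genes are classical Gli targets and kept the same ratio in both libraries. Each line gives the 250 bases before the annotated start, 5′ to 3′ on the gene's own strand, at chr13:63565736-63565985 for Ptch1 and chr8:80058009-80058258 for Hhip, both minus strand. Capitals mark a stretch that matches at least 7 of the 9 letters of GACCACCCA, the consensus bound by Gli zinc fingers, on either strand.
Ptch1: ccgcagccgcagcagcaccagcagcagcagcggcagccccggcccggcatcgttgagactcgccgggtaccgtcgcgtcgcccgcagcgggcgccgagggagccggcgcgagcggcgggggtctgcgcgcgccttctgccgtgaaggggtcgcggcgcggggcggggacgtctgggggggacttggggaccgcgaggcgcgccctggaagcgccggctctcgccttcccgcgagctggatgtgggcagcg
Hhip: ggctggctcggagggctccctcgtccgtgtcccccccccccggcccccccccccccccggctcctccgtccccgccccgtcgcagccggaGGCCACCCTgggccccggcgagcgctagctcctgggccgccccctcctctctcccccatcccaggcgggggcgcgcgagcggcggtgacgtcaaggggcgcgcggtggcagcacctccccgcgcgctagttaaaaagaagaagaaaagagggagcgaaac
The exact motif was in none of the 6 windows and in 0.225% of all 32851 windows of the same length. A match of at least 7 letters was in 3 of the 6 and in 51.8% of all windows. The marked letters in Hhip lie 160 to 152 bases before the start. Gli2 held 2 such matches, which overlap by 1 base, and Smo held 1. The limit of 7 letters was chosen after the windows had been seen, and a match or its absence in these letters is a description of the window only.

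Sufu, which binds Gli proteins and holds them in the cytoplasm, lies at chr19:46396896-46488804 on the plus strand and was the most abundant of the 9. It had 17.57 TPM in replicate 1 and 18.79 TPM in replicate 2, from 1481 and 1461 expected counts. The difference was not called with the gene total (log2 ratio of scaled counts 0.04, exact binomial test, adjusted p = 0.664), but was with spike-in scaling (adjusted p = 0.00798). By the deposited TPM Sufu stood 3.01 times above the sum of the 3 Gli genes in replicate 1 and 2.58 times above it in replicate 2. This ratio depends on which estimate of Gli2 is used, as given below.

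By the deposited TPM the 3 Gli genes summed to 5.84 TPM in replicate 1 and 7.28 TPM in replicate 2. Gli3, the main source of Gli repressor, lies at chr13:15463235-15730026 on the plus strand and made up 55.8% of that sum in replicate 1 and 61.8% in replicate 2. The share was smaller by the authors' posterior mean, which was 3.43 and 4.69 TPM for Gli3 and 2.47 and 2.59 TPM for Gli2. In deposited TPM Gli3 had 3.26 and 4.50, from 469 and 535 expected counts. Gli3 was called higher in replicate 2, the only one of the 9 that was (log2 ratio of scaled counts 0.25, exact binomial test, adjusted p = 0.0264). Its credibility intervals, 2.94 to 3.99 and 4.0 to 5.45 TPM, did not overlap but nearly touched. The fold between libraries was larger in TPM (1.38) than in expected counts (1.14). The authors' effective length of Gli3 was 6735 bases in replicate 1 and 6089 bases in replicate 2. A short transcript held a larger share of Gli3 in replicate 2, as given below.

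Gli2, the main activator on which the first response to ligand rests, lies at chr1:118834132-119053619 on the minus strand. It had 1.52 and 1.42 TPM from 164 and 150 expected counts, with no difference beyond counting noise (log2 ratio of scaled counts -0.07, exact binomial test, adjusted p = 0.816). Both values lay below their own credibility intervals of 1.72 to 3.27 and 1.73 to 3.55 TPM. The intervals surround the authors' posterior mean, which was 2.47 and 2.59 TPM, so the level of Gli2 depends on which estimate is used. By the deposited TPM the ratio of Gli3 to Gli2 was 2.14 in replicate 1 and 3.17 in replicate 2.

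Gli1, an activator that is itself switched on by the pathway, lies at chr10:127329882-127341974 on the minus strand. It had 1.06 TPM in replicate 1 and 1.36 TPM in replicate 2, from 81 and 95 expected counts. The difference did not pass the test at this depth (log2 ratio of scaled counts 0.29, exact binomial test, adjusted p = 0.364). Ptch1 and Gli1, both read as targets of the pathway, differed in level, with a ratio of 14.2 in replicate 1 and 12.0 in replicate 2. Arhgap9 overlaps the end of Gli1 on the opposite strand and had 0.68 and 0.81 TPM.

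Between the libraries 7 of the 9 pathway genes had a positive log2(TPM + 1) ratio of replicate 2 to replicate 1, as did 56.8% of the genes tested. The median ratio of the 9 was 0.09 and that of all genes tested 0.04. The median absolute ratio was 0.11 for the 9 and 0.14 for all genes tested. With 1 of 9 called higher and 1 called lower, the count lay near the background of 33.9%. The ratio of Gli3 was 0.37, and 10.7% of the genes tested had a larger absolute ratio. The calls depended on the scaling. With TMM factors 3 pathway genes were called, Gli3, Ptch1 and Boc, all higher, against 35.0% of all genes. With DESeq2 size factors the same 3 were called higher and Smo lower, against 34.5% of all genes. Scaled by spike-in counts, Gli3, Ptch1, Boc and Sufu were called higher, against 43.2% of all genes, and Smo was not called (log2 ratio of scaled counts -0.08, exact binomial test, adjusted p = 0.421). Replicate 2 was the higher library in 45.9% of all calls with the gene total, in 58.7% after TMM, in 55.8% after DESeq2 and in 80.8% after spike-in scaling. Spike-in scaling moved the median log2 count ratio of detected genes from -0.01 to 0.11. Gli3 was called higher under each of these 4 scalings, with log2 ratios of scaled counts from 0.25 to 0.37.

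**Figure D3:**
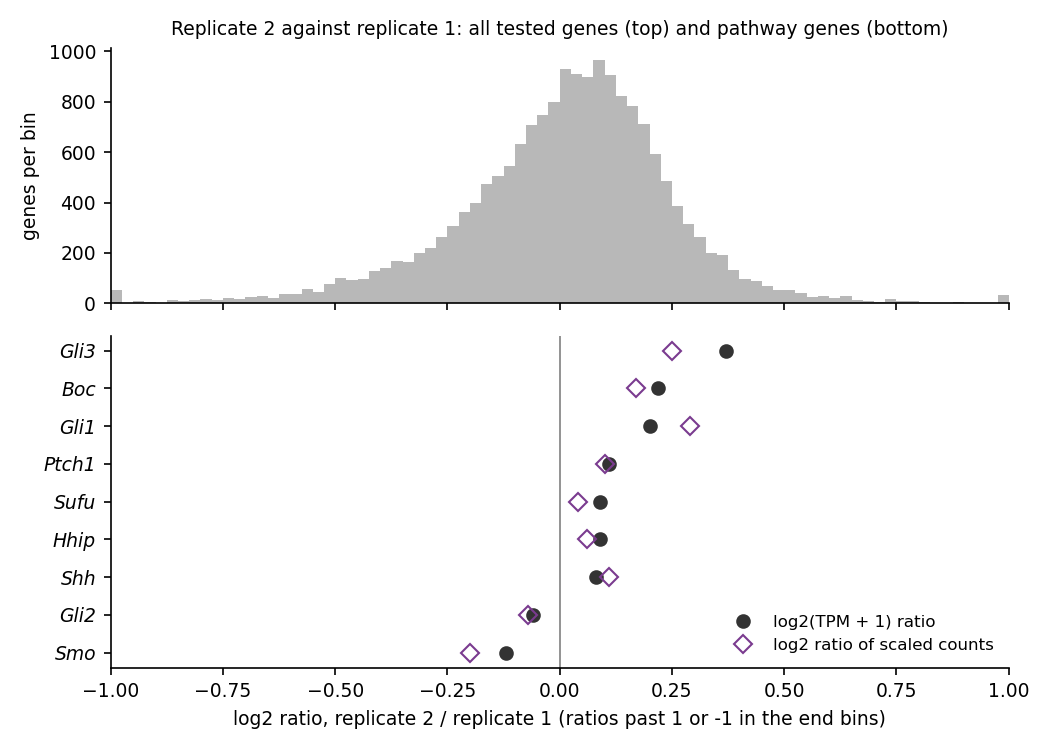
Top, number of genes tested per bin of the log2(TPM + 1) ratio of replicate 2 to replicate 1; bottom, the same ratio (filled circles) and the log2 ratio of counts scaled by gene total (open diamonds) for the 9 pathway genes. The pathway genes lie within the bulk of all genes, with Gli3 highest at 0.37 and Smo lowest at -0.12 on the log2(TPM + 1) scale.

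**Figure D4:**
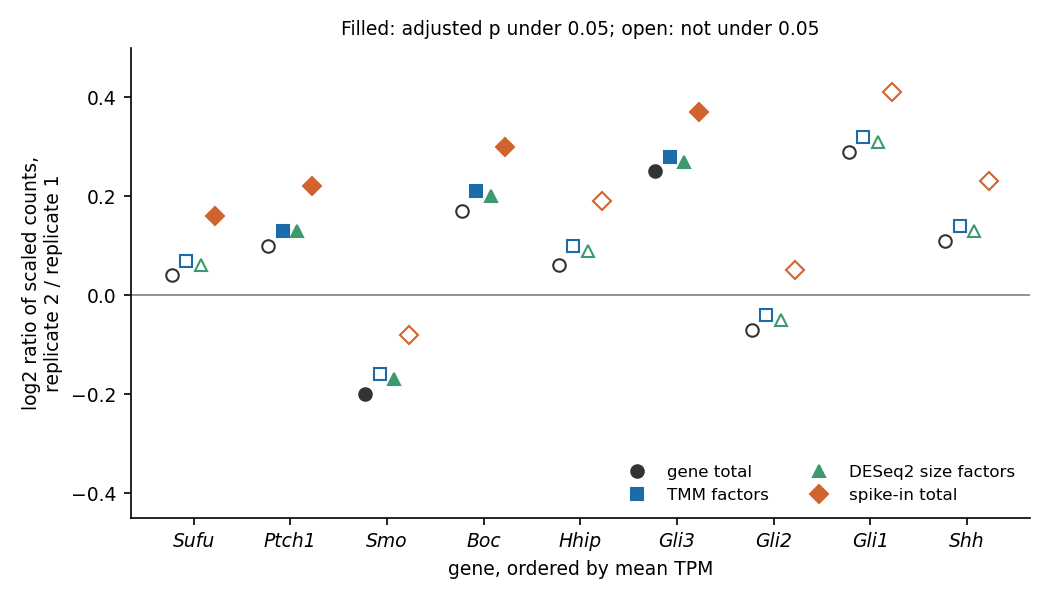
Log2 ratio of scaled counts, replicate 2 to replicate 1, for each pathway gene under 4 scalings, with filled symbols where the exact binomial test gave an adjusted p under 0.05. Gli3 is filled under all 4, Ptch1 and Boc under 3, Smo under 2 and Sufu with spike-in scaling only.

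Several pathway genes were split over more than 1 transcript, and the shares give a view of the genes that the gene totals do not. The tables listed 34 transcripts for the 9 genes, and 19 of them had a mean count of at least 10. Of these 19 transcripts 1 had credibility intervals that did not overlap between the libraries, as did 11.9% of all transcripts at that depth. It was Ptch1-202, a coding transcript of 24 exons.

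Ptch1-202 had 11.27 TPM in replicate 1 and 13.60 TPM in replicate 2, with intervals of 9.99 to 11.8 and 12.2 to 14.1 TPM. It held 74.8% and 83.3% of the TPM of Ptch1. Ptch1-201, the transcript whose start is the RefSeq start used for the window above, held 10.7% and 5.33%. Ptch1-202 starts 1200 bases downstream of that start, so most Ptch1 signal was assigned to a transcript that does not begin at the printed window. How reads that fit both were divided between them rests on the authors' estimate.

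Gli3-201, the longest Gli3 transcript at 8170 bases, held 77.1% of Gli3 in replicate 1 and 66.7% in replicate 2. Gli3-202, a coding transcript of 2004 bases that ends before the last exon of Gli3-201, held 15.3% and 25.1%. In TPM Gli3-201 had 2.52 and 3.0 and Gli3-202 had 0.50 and 1.13, each with overlapping intervals. Gli3-202 rested on 20.2 and 42.2 expected counts.

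Gli2 was the least certain at this level, with 9 transcripts listed and 3 of them given any counts. Gli2-201, the full coding transcript of 6637 bases, held 72.8% and 79.6% of the deposited TPM, but 41.5% and 39.9% of the posterior mean TPM. The remainder of the deposited TPM fell to short transcripts annotated as targets of nonsense-mediated decay, the pathway that degrades messages with early stops. Gli2-204 held 27.2% in replicate 1 and 4.93% in replicate 2, from 9.64 and 1.44 expected counts, and Gli2-205 held 0% and 15.5%, from 0 and 4.31 counts. Such low counts allow no statement on these short forms.

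For Hhip and Sufu the shares differed less between the libraries. Hhip-201 held 75.3% and 76.7% of Hhip, and the noncoding Hhip-202 held 24.7% and 23.3%. Sufu-201 held 81.6% and 84.9% of Sufu, and the shorter coding Sufu-202 held 11.0% and 9.53%. For Boc, a transcript of 4428 bases that is not in the M21 annotation held all of the TPM in replicate 1 and 89.2% in replicate 2, where Boc-201, only slightly longer at 4452 bases, held 10.8%. Shh, Smo and Gli1 had 1 transcript each in the tables.

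**Figure D5:**
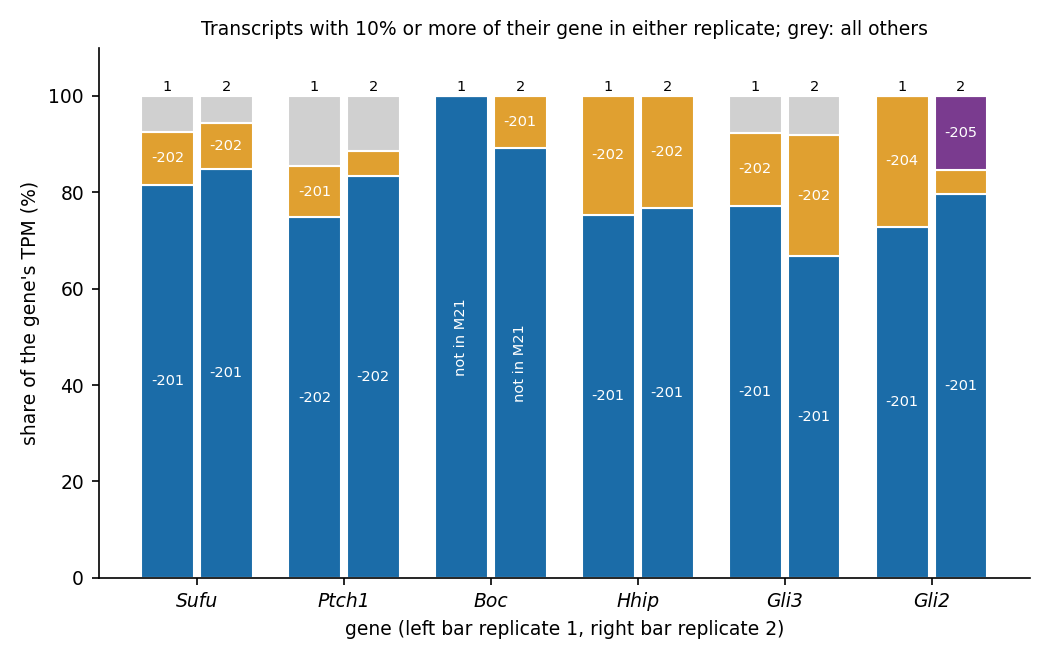
Share of each gene's TPM held by its transcripts (percent), with replicate 1 on the left and replicate 2 on the right; numbers inside the bars are transcript names without the gene symbol and grey is the sum of all transcripts under 10% in both libraries. Ptch1-202 takes 74.8% and 83.3% of Ptch1 and Gli3-202 takes 15.3% and 25.1% of Gli3, while the short forms of Gli2 rest on fewer than 10 counts each.

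Inside the cell, all 25 measured genes of Smo trafficking, protein kinase A, Gli processing and the cilium were detected, with 5 called higher and 6 lower in replicate 2 and a median log2(TPM + 1) ratio of 0.06. Over all genes tested 15.6% were called higher and 18.3% lower, and the median was 0.04. The most abundant were Prkar1a, the regulatory subunit of protein kinase A (405.56 and 481.24 TPM), the casein kinase Csnk1a1 (239.39 and 229.81 TPM) and the ciliary motor subunit Kif3a (200.73 and 225.02 TPM). These kinases and motors serve many pathways, and each lay at over 10 times the level of Sufu, the highest of the 9. Among the called genes the largest ratios were those of Tulp3, which carries receptors into the cilium (15.48 and 11.36 TPM), Efcab7 (11.33 and 8.61 TPM) and Evc (1.87 and 2.55 TPM), both of the Evc complex at the base of the cilium. Efcab7 was no longer called with spike-in scaling (exact binomial test, adjusted p = 0.0582). Csnk1a1, called lower with the gene total, had a log2 ratio of 0.02 with spike-in scaling and was not called. Iqce was called lower on its 906 and 772 expected counts, while its TPM was 15.42 and 17.75. The call of Iqce was lost under the other scalings, and it is named outside the rule, after its values were seen. Over the list, spike-in scaling gave 11 genes higher and 2 lower, against 34.9% and 8.3% of all genes tested.

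Of 13 target genes of ventral patterning and progenitor division, 10 were detected, and of the 12 tested 4 were called higher and 2 lower in replicate 2, with a median log2(TPM + 1) ratio of 0.03. Over all genes tested 15.6% were called higher and 18.3% lower, and 62.5% of protein-coding genes were detected. The most abundant were the cyclin Ccnd2 (36.38 and 56.07 TPM), the proliferation factor Mycn (39.72 and 51.40 TPM) and Bmi1 (24.68 and 27.64 TPM). Ccnd2, Mycn and Olig2, a factor of ventral progenitors (8.96 and 11.84 TPM), had the largest ratios among those called, all higher in replicate 2 under each scaling.

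Markers of cell types that the tissue could hold also differed between the libraries. Which of these cells make or receive the signal was not tested. The calls are to be read against 15.6% of all genes tested called higher and 18.3% called lower. Of 8 floor plate markers, led by Spon1 and Slit2, 4 were called lower in replicate 2, with summed levels of 138 and 125 TPM. One of these, Foxa2, was called on its 71 and 42 expected counts, while its TPM was 1.69 and 1.74 and its call was lost under the other scalings; it is named outside the rule, after its values were seen. Of 9 Purkinje lineage markers, led by Pcp4 and Bcl11a, 6 were called higher and 2 lower, with sums of 469 and 530 TPM. Of 8 granule lineage markers, led by Meis1 and Mab21l1, 2 were called higher and 2 lower, with sums of 345 and 362 TPM. Of 8 radial glia markers, led by Fabp7 and Vim, 3 were called higher and 2 lower, with sums of 2510 and 2530 TPM. Markers of choroid plexus and meninges differed as well. The choroid plexus markers, led by Ttr and Folr1, had 5 of 7 called lower and 1 higher, with sums of 1950 and 1180 TPM, and the meningeal and fibroblast markers, led by Col3a1 and Col1a2, had 7 of 8 called lower, with sums of 777 and 646 TPM. Of 6 Schwann and ganglion markers, led by Prph and Isl1, 1 was called higher (99.5 and 108 TPM), and of the 5 endothelial markers, led by Cldn5 and Kdr, 2 were called lower (157 and 153 TPM). Of the hindbrain markers 6 of 8 were called lower (417 and 390 TPM), and of the forebrain markers 2 were called higher, Lhx2 and Six3. The forebrain sums of 11.1 and 16.1 TPM came almost wholly from Lhx2 (10.42 and 15.12 TPM). Six3 lay under the detection limit, with 0.02 and 0.42 TPM from 1 and 19 expected counts. None of the 4 markers of the hypothalamus, another source of Shh, led by Sim1 and Rax, was detected, and their sums were 0.28 and 0.26 TPM, with Sim1 called lower. With spike-in scaling 1 floor plate, 0 endothelial, 0 radial glia and 3 hindbrain markers were called lower, as were 5 choroid plexus and 6 meningeal and fibroblast markers. With that scaling 7 Purkinje lineage, 6 radial glia, 4 granule lineage and 3 Schwann and ganglion markers were called higher, beside 34.9% of all genes tested called higher and 8.3% lower. The part of these differences in the values of Smo and Gli3 was not tested.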

How the data were processed

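Total RNA of E14.5 mouse hindbrain was measured in 2 libraries, which form 1 group. Per the labels, RNA was extracted with mirVana, and spike-in RNAs were added. Per the accompanying description of each library, the authors used assembly mm10 and annotation M4 for each replicate separately. No source used here names the aligner, quantifier, their versions or the strand setting. The deposited expected counts are the authors' estimated reads per feature, not normalised. TPM values, as deposited, are relative to all 69691 features, spike-ins included, and the deposited FPKM values by length and total. The deposited credibility bounds and posterior means (score values) come from the authors' estimate. The level of the intervals is not stated. Percent shares of a gene per transcript, also deposited, were not used and were recomputed from TPM.

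Symbols were matched by identifier without version for 42462 genes. Positions came from GENCODE M21 (GRCm38). Of genes sharing a symbol, the one with the higher mean was kept. Ratios are replicate 2 over replicate 1 with a pseudocount of 1, which understates changes of low genes. Expected counts, rounded to whole numbers and scaled by the sum over genes, were compared by an exact two-sided binomial test, doubling the smaller tail, in genes averaging at least 10 counts. Adjustment was by Benjamini-Hochberg over all genes tested, at a threshold of 0.05. The test was tested on data simulated with counting noise only, which cannot show how it behaves under other noise. The tests cover counting error only, and the intervals cover the authors' estimate within 1 library, not variation between libraries. Reads lacking molecular identifiers are no independent molecules, so counting error itself may be understated. The floor of 3 counts was 0.0859 CPM for the first library and 0.0895 for the second.

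The 9 genes and all lists were chosen with earlier results of these data known. Named were the 9 genes with transcripts of at least 10% of their gene, the other ligands, the 3 highest and up to 3 largest called ratios of each pathway list and the 2 highest of each marker list. Some genes that the lists or the naming rule would take are not reported here and are left out of the list counts. The listed names Adrbk1 and Corl2 had no match, and both genes are listed under current symbols too. Alternatives were FPKM, the posterior mean, other limits, pseudocounts of 0.1 and 0.01, and scaling by 96 spike-ins, by DESeq2 size factors (version 1.42.0) or by TMM from edgeR (version 4.0.16). Scripts ran under Python 3.11.15 with scipy 1.17.1, numpy 2.4.6, matplotlib 3.10.9 and pandas 2.3.3, and under R 4.3.3.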

Additional observations from a re-analysis of the deposited data

How the results depend on the processing

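No paired analysis was possible because both samples form 1 group. All 9 genes stayed detected with a limit of 0.5 TPM, the posterior mean, 10 expected counts and each library alone, but 6 passed a limit of 2 TPM, 6 a limit of 1 FPKM, 4 a limit of 5 TPM and 3 a limit of 10 TPM. Their order by level held in replicate 1 alone and in 35 of 36 pairs in replicate 2 alone, where Gli3 lay above Hhip. TPM without spike-in, mitochondrial and numeric-identifier features rescales all genes of a library by the same factor, so the means of all 9 rose. The rise was more than 1 SD for Shh (1.25), Ptch1 (17.8), Smo (12.9), Gli2 (1.67), Hhip (4.68), Sufu (20.6) and Boc (10.0). It stayed within the SD for Gli1 (1.37) and Gli3 (4.4). The posterior mean moved Gli2 to 2.53 TPM and the main transcript share by more than 1 SD to 40.7% for Gli2, 74.8% for Hhip and 79.7% for Sufu. It also lowered the share to 75% for Ptch1, 66.5% for Gli3 and 90% for Boc. These 3 shifts were larger in percent points than that of Hhip, but lay within a wider SD. The cause of the shifts with the posterior mean was not tested.

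The log2 ratio of Gli2 changed sign to 0.05 with the posterior mean and to 0.05 with spike-in scaling, and was called under neither. Ptch1 became called with TMM (0.13), DESeq2 (0.13) and spike-in scaling (0.22), as did Boc (0.21, 0.20 and 0.30), and Sufu with spike-in scaling (0.16). Smo lost its call with TMM (-0.16) and spike-in scaling (-0.08). The number of pathway genes called went from 2 to 3 with TMM, 4 with DESeq2 and 4 with spike-in scaling. On the log2(TPM + 1) scale it was 0 with a minimum of 1.5-fold (2.32% of all genes tested) and 0 with 2-fold (0.43%). With no fold minimum, the exact binomial test gave 4 of 9 an unadjusted p under 0.05, against 42.1% of all genes tested. Summing the smaller probabilities for p, added after seeing the data, gave 6079 calls over all genes in place of 5990. At 5 TPM 2 ligand and release genes stayed detected, and at 10 TPM 0, 3 other receptors and 6 target genes. The other 159 combinations of result and setting kept direction and call, or stayed within 1 SD (levels and shares) or 1.5 times (counts of genes). Shh, Gli1 and the short Gli2 transcripts are limited by depth.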
